A study of Mus musculus with 2 samples.

Results

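The pyruvate dehydrogenase genes described here are 10 genes for the complex, its kinases and its phosphatases: Pdha1, Pdhb, Dlat, Dld, Pdhx, Pdk1, Pdk2, Pdk4, Pdp1 and Pdp2. They were taken as every probe set annotated to exactly 1 of these symbols, which gave 19 probe sets for 10 genes, of 34945 such probe sets for 18193 genes on the array. Total RNA from mouse skeletal muscle was hybridised to 2 Affymetrix Mouse Genome 430 2 arrays. One array held a pool of 3 wild-type mice and the other a pool of 3 Jhdm2a null mice. All were males aged 3 months from a line made in 129 embryonic stem cells and crossed back to C57BL/6 over 4 generations. Jhdm2a, now named Kdm3a, encodes a demethylase of lysine 9 of histone H3. The labels name neither the muscle taken nor the way the gene was disrupted. The comparison addresses which transcripts of the pathway differ in level between the muscle pools labelled wild-type and Jhdm2a null.

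Each value is a MAS5 signal, the brightness of a probe set on a linear scale. A probe set was measured when it read above a floor of 182, the 60th percentile of all signals, on both arrays. The measured probe sets of a gene were averaged as log2 ratios, null pool over wild-type pool, and the mean stands for the gene. With 1 pooled array per genotype there is no spread between animals and no test, so higher and lower below describe these 2 arrays. The 1 Kdm3a probe set read 406 in the wild-type pool and 487.5 in the null pool, so the targeted transcript was not lower in the null pool. The labels do not say whether the probe set lies in the disrupted part, so it cannot check them, and the pools are called wild-type and null by label alone. In bulk RNA, fewer cells of a type and less RNA per cell cannot be told apart.

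The pyruvate dehydrogenase complex sits in the mitochondrial matrix and turns pyruvate from glycolysis into acetyl-CoA for the tricarboxylic acid cycle. Its kinases phosphorylate the alpha subunit of the first enzyme and switch the complex off, and its phosphatases remove that phosphate and switch it on again. In skeletal muscle this switch is known to set the choice between glucose and fat as fuel.

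By gene means, the complex and its kinases read nearly alike in both pools, while the 2 phosphatase genes stood apart in opposite directions. Pdp1 was 1.74-fold higher and Pdp2 3.21-fold lower in the null pool. The means of the other 8 genes all lay between log2 ratios of -0.32 and 0.31, which is within 1.25-fold. Single probe sets among them passed 1.5-fold, Pdk1 1423747_a_at at -0.67 and Pdha1 1449137_at at 0.59. All 10 genes had at least 1 measured probe set, and 17 of the 19 probe sets were measured. Of the 10 genes, 1 was at least 1.5-fold lower and 1 at least 1.5-fold higher. Among all 9696 measured genes, 6.34% were at least 1.5-fold lower and 3.38% at least 1.5-fold higher, so a single gene of 10 in each direction lies near that background and says nothing particular about the set. At 2-fold, 1 of the 10 was lower and 0 were higher, against 2.37% and 0.371% of all measured genes. The median log2 ratio of the 10 genes was -0.05, beside 0.04 for all measured genes. It was 0.01 with the floor at the 75th percentile, where Pdp2 goes unmeasured, and 0.06 from probe sets with a plain name ending, so the median has no settled sign.

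**Figure D1:**
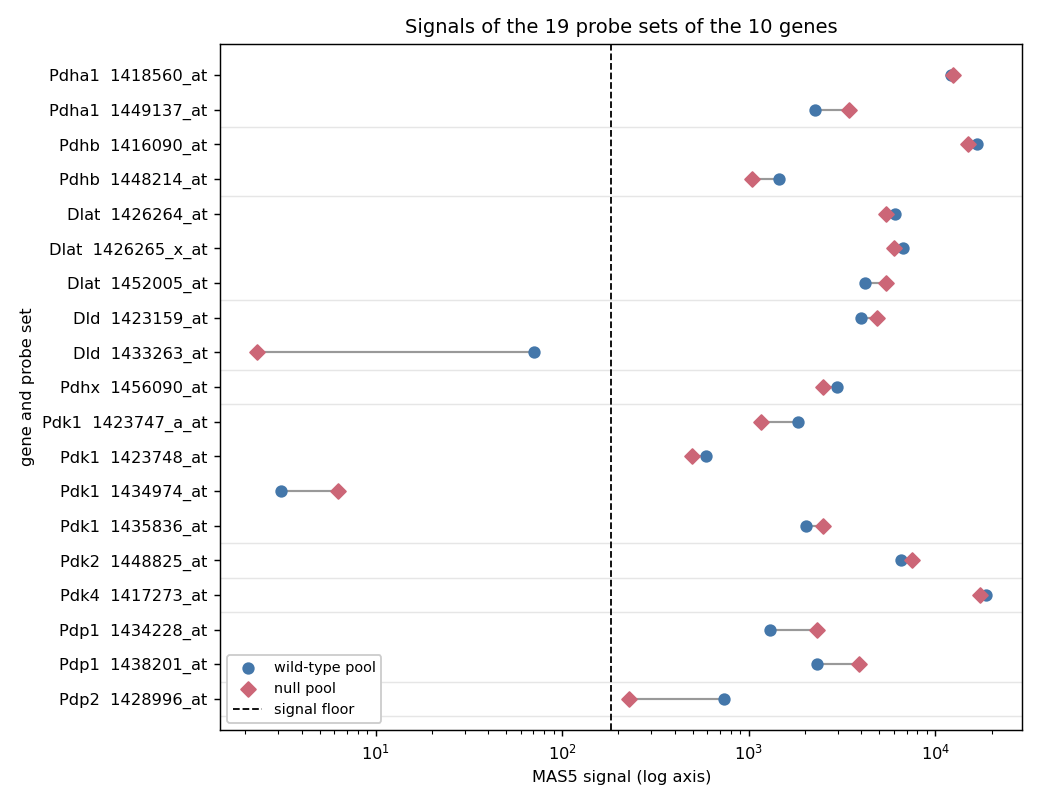
MAS5 signal on a log axis for each of the 19 probe sets, with a circle for the wild-type pool, a diamond for the null pool and a dashed line at the floor of 182. The Pdp1 probe sets lie to the right in the null pool, Pdp2 moves from 733 to 228, and 1 probe set each of Dld and Pdk1 lies under the floor on both arrays.

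Pdha1 and Pdhb encode the alpha and beta subunits of the first enzyme of the complex, which decarboxylates pyruvate with the help of thiamine diphosphate. The first Pdha1 probe set, 1418560_at, read 12191 in the wild-type pool and 12369 in the null pool. The second, 1449137_at, read 2275 and 3427. Both were thus higher in the null pool, the first by 1.46% and the second by 50.6%. The first turned slightly negative under the 3 other scalings, between -0.09 and -0.02, so it has no settled direction. The mean log2 ratio of Pdha1 was 0.31 ± 0.40 (SD of 2 probe sets). Its partner Pdhb read 16685 and 14906 with probe set 1416090_at, and 1443.5 and 1037.5 with probe set 1448214_at. Both Pdhb probe sets were lower in the null pool, by 10.7% and 28.1%, for a mean of -0.32 ± 0.22 (SD of 2 probe sets). The alpha and beta genes therefore differed in sign, and each kept its sign in all 10 processing alternatives. The positive value of Pdha1 rests on its dimmer probe set, and with the brightest alone the gene was at 0.02. Of all measured genes 33.0% lay at least as far from 0 as Pdha1 and 30.9% at least as far as Pdhb.

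Dlat encodes the acetyltransferase that forms the core of the complex and carries the lipoyl arm. Its probe sets 1426264_at and 1426265_x_at were lower in the null pool, with 6094.5 against 5422 and 6724 against 5965.5. Probe set 1452005_at was higher there, with 4201 against 5426. The mean was 0.01 ± 0.31 (SD of 3 probe sets), and its sign turned in 5 of 10 alternatives, so Dlat has no direction here. Dld, the dihydrolipoamide dehydrogenase that reoxidises the lipoyl arm and also serves the other 2-oxoacid dehydrogenases, read 3998 and 4892 with probe set 1423159_at, a log2 ratio of 0.29. A second Dld probe set, 1433263_at, read 70.8 and 2.3, under the floor on both arrays, and gives no ratio. Averaging it in with no floor would put Dld at -2.33. Pdhx, the protein that anchors Dld to the core, read 2951.5 and 2492.5, a log2 ratio of -0.24. Across the 5 genes of the complex 3 were above 0 and 2 below, with a median of 0.01.

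The kinases lay on both sides of 0, with log2 ratios of -0.21 for Pdk1, 0.21 for Pdk2 and -0.11 for Pdk4. Pdk2, the kinase expressed in most tissues, read 6526 in the wild-type pool and 7528.5 in the null pool. Pdk4, the kinase that fasting and fat use induce in muscle, read 18666 and 17355 with its 1 probe set, so it was 7.02% lower. Both kept their sign in all 10 alternatives, Pdk2 within 0.10 and 0.21 and Pdk4 within -0.22 and -0.10. Each has 1 probe set, above every floor, so only the 3 scalings and the pseudocount could move its value. Pdk1, which hypoxia is known to induce, was read by 3 measured probe sets that disagreed. Probe set 1423747_a_at read 1842 and 1160.5, and 1423748_at read 592 and 498, both lower in the null pool. Probe set 1435836_at read 2030.0 and 2487 and was higher there. The SD between these 3 probe sets was 0.48, and 7.74% of the 3719 genes with 2 or more measured probe sets had one as large. The fourth, 1434974_at, read 3.1 and 6.3, under the floor. Pdk1 turned to 0.29 when its brightest probe set was used alone, to 0.10 with no floor and to 0.02 from probe sets with a plain name ending, so its direction depends on the probe set read. Disagreement in sign is frequent on these arrays, at 40.7% of genes with 2 or more measured probe sets, and here at 2 of 5 genes, Dlat and Pdk1.

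Pdk4 is a known target of Ppara, the fatty acid receptor, yet the pools were far apart for Ppara and close for Pdk4. Ppara read 2220 and 809 with probe set 1439675_at, 647 and 280 with 1449051_at, and 1868 and 843 with 1457721_at. All 3 were more than 2-fold lower in the null pool, with a mean of -1.27 and a range of -1.46 to -1.19 over the alternatives, beside -0.11 for Pdk4. Other regulators lay closer to 0. Ppard, a receptor related to Ppara, had -0.42 from 1 measured probe set and 0.04 with no floor. Nr3c1, the glucocorticoid receptor, which also raises Pdk4, had 0.57, and Sirt4, a mitochondrial sirtuin that can remove lipoyl groups from the complex, had 0.52. Of 13 measured regulators of the kinases or of the complex's activity, 1 was at least 1.5-fold lower, Ppara, and 0 were at least 1.5-fold higher. Of all measured genes 6.34% were at least 1.5-fold lower and 3.38% higher. The median of the 13 regulators was -0.03, with a sign that turned in 2 of 10 alternatives.

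The Pdk4 start-site window is printed because Pdk4 is a known target of Ppara, which differed between the pools while Pdk4 differed little. It comes from RefSeq on the build GRCm38.p6, where each window holds 300 bases around an annotated transcript start, and capitals mark the 1 motif found in it, a CCAAT box on the opposite strand. The window lies at chr6:5496229-5496528 on the minus strand.
Pdk4: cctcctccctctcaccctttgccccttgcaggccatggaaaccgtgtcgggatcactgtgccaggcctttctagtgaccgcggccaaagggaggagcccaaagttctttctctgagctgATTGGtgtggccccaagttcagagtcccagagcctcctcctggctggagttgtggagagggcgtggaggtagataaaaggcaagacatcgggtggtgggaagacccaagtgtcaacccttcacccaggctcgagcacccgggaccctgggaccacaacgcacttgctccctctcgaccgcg

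The phosphatases gave the largest differences among the 10 genes. Pdp1 encodes the calcium-stimulated phosphatase that is known as the main form in skeletal muscle. Its probe set 1434228_at read 1294 in the wild-type pool and 2308 in the null pool, and 1438201_at read 2314 and 3907. Both were higher in the null pool, by 78.3% and 68.9%, and they differed little from each other. The mean log2 ratio was 0.80 ± 0.06 (SD of 2 probe sets), against a pooled SD of 0.29 between probe sets of 1 gene over all genes. Pdp1 ranked 83 from the top of 9696 measured genes. It stayed at least 1.5-fold higher in all 10 alternatives, between 0.72 and 0.80.

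Pdp2 encodes the second phosphatase, which calcium does not stimulate and which is known mainly from liver and fat. Its 1 probe set, 1428996_at, read 733 in the wild-type pool and 228 in the null pool. The value of the null pool lies just above the floor of 182, and no second probe set was there to compare it with. The log2 ratio was -1.68, rank 97 from the bottom of 9696. Pdp2 kept its direction, between -1.73 and -1.49, in the 9 alternatives that measured it. With 1 probe set, only the 3 scalings and the pseudocount among these could move its value. With the floor at the 75th percentile, 467, Pdp2 was not measured.

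The log2 ratio of Pdp1 exceeded that of Pdp2 by 2.48, so the signal of Pdp1 relative to Pdp2 was 5.58-fold higher in the null pool than in the wild-type one. This difference does not depend on how the arrays are scaled to each other by a single factor, and it ranged from 2.27 to 2.48 over the 9 alternatives. It shows unequal change of the 2 genes and says nothing of their levels relative to each other, since probe sets differ in brightness. Pdpr, the regulatory subunit that works with Pdp1 and is no member here, had 0.05, but its 3 measured probe sets disagreed, at 0.02, 0.35 and -0.24. Over the alternatives Pdpr ranged from -0.04 to 0.44, so it has no settled direction. The third kinase gene Pdk3 and the testis form Pdha2 were under the floor on both arrays.

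**Figure D2:**
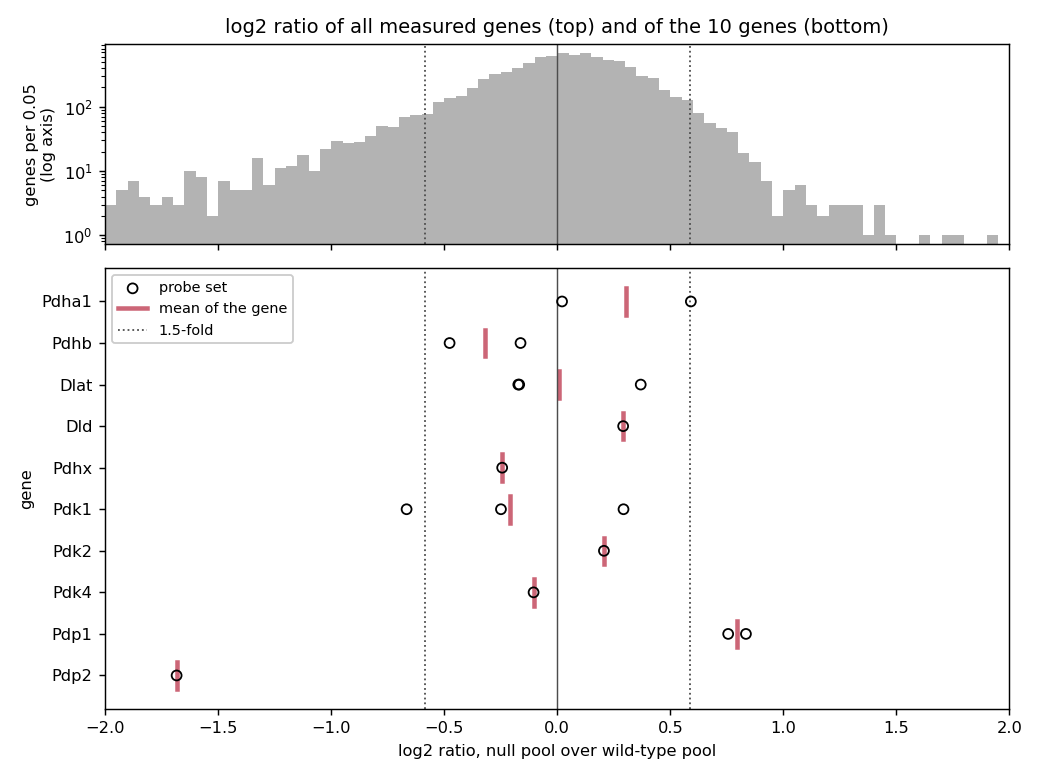
Top, number of measured genes per 0.05 of log2 ratio on a log axis, with 71 genes beyond 2 in either direction not drawn. Bottom, log2 ratio of each measured probe set (open circles) and its gene mean (bars) for the 10 genes, with dotted lines at 1.5-fold. Pdp1 at 0.80 and Pdp2 at -1.68 are the 2 gene means outside the dotted lines, and the probe sets of Dlat and Pdk1 fall on both sides of 0.

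The Pdp2 start-site window is shown because Pdp2 is the member farthest from 0. It lies at chr8:104591222-104591521 on the plus strand of GRCm38.p6, from RefSeq. Capitals mark, on either strand, 1 E box (CACGTG), 1 GC box (GGGCGG) and 2 CCAAT boxes.
Pdp2: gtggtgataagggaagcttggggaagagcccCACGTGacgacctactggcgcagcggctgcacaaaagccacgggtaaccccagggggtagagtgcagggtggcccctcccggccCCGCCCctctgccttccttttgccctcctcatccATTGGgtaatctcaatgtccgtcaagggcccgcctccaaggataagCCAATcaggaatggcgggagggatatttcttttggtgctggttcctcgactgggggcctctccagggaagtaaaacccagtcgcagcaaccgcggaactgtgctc

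Windows of 9 of the 10 genes were found, 11 in all. They had a median GC content of 61.0% and 18 CG pairs, beside 52.7% and 7 over all 32851 windows. CCAAT was found in 6 of the 11 windows, 1 each of Dld, Pdhb, Pdhx, Pdk2, Pdk4 and Pdp2, and in 37.4% of all windows. GGGCGG was found in 5 of the 11, 1 each of Dlat, Pdhb, Pdhx, Pdk1 and Pdp2, and in 35.7% of all windows. The E box CACGTG stood in 2 of the 11, those of Pdk2 and Pdp2, and in 7.15% of all windows. TATAAA, the nuclear receptor half-site AGGTCA and the FoxO core GTAAACA were in none of the 11 windows, and in 13.6%, 16.3% and 3.65% of all windows. The half-site repeated with 1 base between, the form PPAR receptors bind, was in none of the 11 and in 0.0396% of all windows. Both strands were searched, and no motif of the set contains another except the half-site within its repeat. The genes that carried CCAAT lay on both sides of 0.

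The genes of the complexes built on the same plan as pyruvate dehydrogenase mostly read lower in the null pool. Of 8 measured genes on the list of sister 2-oxoacid dehydrogenases and their regulators, 7 were below 0, with a median log2 ratio of -0.47. The list includes Gcsh, the H protein of glycine cleavage, at -0.15. Of the 8 genes, 1 was at least 1.5-fold lower, beside 6.34% of all measured genes, of which 55.7% were above 0. The subunits that match Pdha1, Pdhb and Dlat in the 2-oxoglutarate and branched-chain complexes are Ogdh, Dlst, Bckdha, Bckdhb and Dbt. These 5 lay between -0.64 and -0.47, and all 7 of their measured probe sets were lower in the null pool. Pdha1, Pdhb and Dlat lay between -0.32 and 0.31, with 4 of 7 probe sets lower. The ranges do not overlap as reported, but with the floor at the 75th percentile Ogdh at -0.26 lay above Pdhb at -0.32. The dim Ogdh probe set was at -0.76 and the bright one at -0.26. With the brightest probe set of each gene Ogdh was at -0.26, below Dlat at -0.17, the lowest of Pdha1, Pdhb and Dlat. From summed signals Ogdh was at -0.28, below Pdhb at -0.19, there the lowest of the same genes. This side-by-side was drawn after the values were seen and was not tested. Dbt, the branched-chain acyltransferase, was lowest, with 2002 in the wild-type pool and 1284 in the null pool. Bckdhb, the beta subunit of the branched-chain decarboxylase, had -0.53, and Ogdh, the first enzyme of the 2-oxoglutarate complex, had -0.51.

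The measured genes that prepare the cofactors of the complex stayed within 1.5-fold, with 1 exception. Of 14 measured genes for lipoate synthesis and attachment, 1 was at least 1.5-fold lower and 0 higher, and the median was -0.18. Of all measured genes 6.34% were at least 1.5-fold lower and 3.38% higher. The exception was Mecr, the last reductase of mitochondrial fatty acid synthesis, the pathway that supplies the octanoyl group for lipoate. Mecr read 1143 and 352 with probe set 1417097_at and 1835 and 673 with 1417098_s_at, so both were lower in the null pool, with a mean of -1.57. Lipt2, which transfers the octanoyl group, had 0.42, and Mcat, the malonyl transferase of the same synthesis, had -0.40. For thiamine, 2 genes were measured, the transporter Slc19a2 at 0.46 and the phosphatase Thtpa at 0.15. Slc19a2 rests on 1 measured probe set, and a dimmer one, at 213 and 170, read lower in the null pool. With the floor at the 50th percentile, which takes in that dimmer probe set, Slc19a2 was at 0.07.

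Genes that bring pyruvate to the complex or send it elsewhere had a median of -0.12 over 13 measured genes, 5 above 0 and 8 below. Of these 13, 1 was at least 1.5-fold lower and 0 higher, beside 6.34% and 3.38% of all measured genes. That 1 was Pcx, the pyruvate carboxylase, which read 4121 in the wild-type pool and 1274 in the null pool, a log2 ratio of -1.69. Slc16a1, a carrier of lactate and pyruvate across the cell membrane, had -0.44, and Gpt, an alanine aminotransferase, had -0.43. With no floor Gpt was at -0.0021. On the list of acetyl-CoA use and export, all 8 measured genes were below 0, where 55.7% of all measured genes were above 0. Their median was -0.95, and 5 were at least 1.5-fold lower, beside 6.34% of all measured genes. The list mixes genes that use acetyl-CoA with genes that make it, such as Acly and Acss2, so not all of it lies downstream of the complex. Slc25a1, the citrate carrier, read 7091 and 545, 13.0-fold lower. Acly, which splits citrate to acetyl-CoA in the cytosol, had -3.23, and Acss2, which makes acetyl-CoA from acetate, had -1.77. Cs, the citrate synthase that takes up the product of the complex in the mitochondrion, had -0.07.

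**Figure D3:**
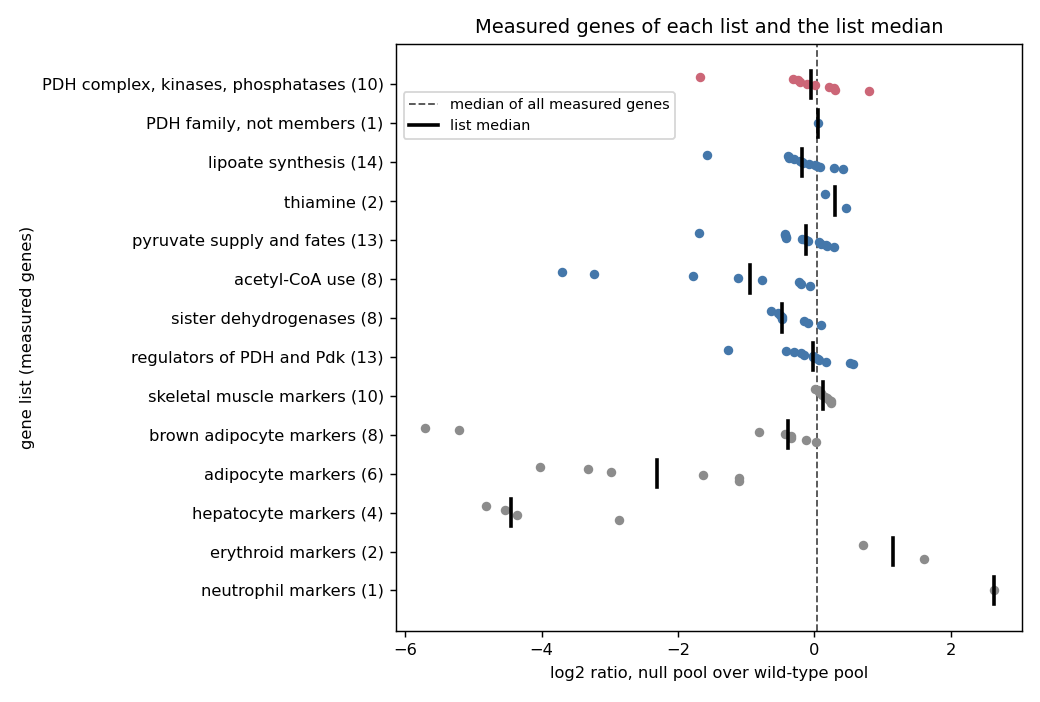
log2 ratio of each measured gene (points) and the median (black bars) for the 10 genes, the lists of related genes and the cell type markers, with the number of measured genes in brackets and a dashed line at the median of all measured genes, 0.04. The 10 genes centre near 0 with Pdp2 and Pdp1 at the ends, while acetyl-CoA use has a median of -0.95 and the adipocyte and hepatocyte markers lie at -2.31 and -4.45.

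Markers of other tissues differed between the pools along with these genes. The 10 skeletal muscle markers were all measured, with a median of 0.13 and a summed signal of 178826 in the wild-type pool and 198902 in the null pool. Acta1, skeletal actin, had 0.25 and Ckm, muscle creatine kinase, 0.22. All 6 measured adipocyte markers were at least 1.5-fold lower, beside 6.34% of all measured genes. Lep and Pparg were not above the floor in the null pool. The summed signal of the 8 adipocyte markers with a probe set was 59522 in the wild-type pool and 18722 in the null pool. Adipoq, the hormone adiponectin, was 9.99-fold lower. Of 8 measured brown adipocyte markers 3 were at least 1.5-fold lower, beside the same 6.34%. Elovl3 and Otop1 were above the floor in the wild-type pool only. The sum over all 10 brown adipocyte markers was 71507 against 35625. Ucp1 read 14885 and 283, while Cox8b and Cox7a1, which muscle also makes, hold most of the sum in the null pool. All 4 measured hepatocyte markers were lower, and of these Pck1 and Pygl are made in fat as well. The sum over the 9 hepatocyte markers with a probe set was 31526 against 1625. Alb, serum albumin, read 2635 and 361. Fgb, Tat and Ahsg were not above the floor on either array, and Apoa1 and Ttr not in the null pool. The 6 heart markers were all under the floor in the null pool, and 5 of them on both. Neutrophil markers had a sum of 633 against 7559, with 4 of 5 under the floor in the wild-type pool, and the 3 erythroid genes with a probe set had 540 against 1299. What part these cell types had in the values of Pdp2, Mecr, Pcx, Acly, Slc25a1 and Ppara, which read lower along with the fat and liver markers, was not tested.

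**Figure D4:**
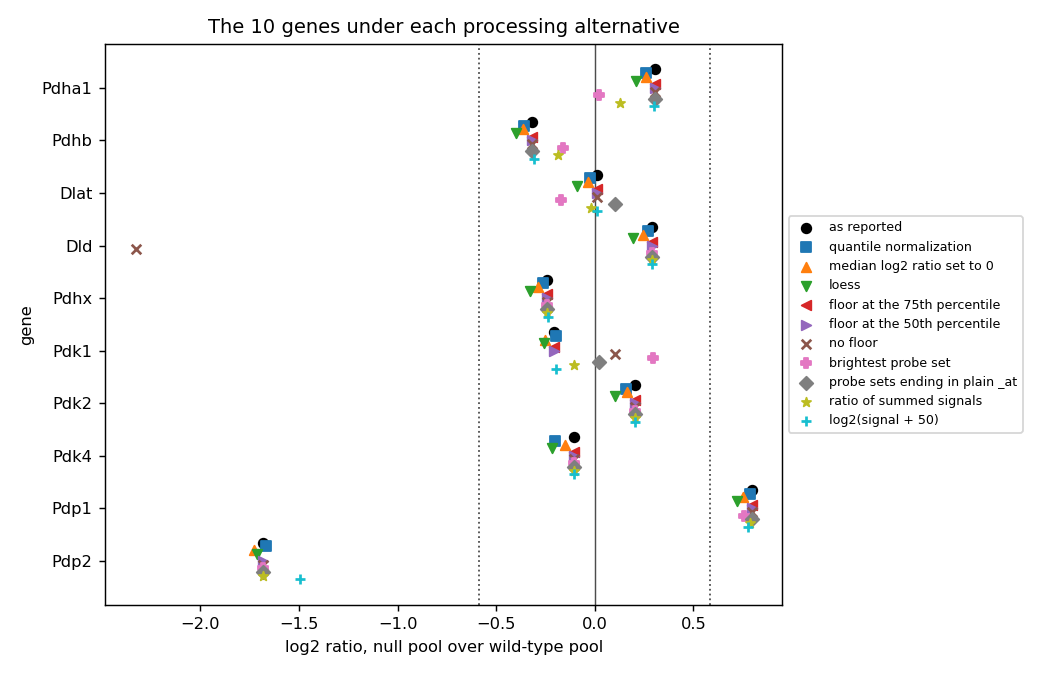
log2 ratio of each of the 10 genes as reported (black circles) and under 10 alternatives (coloured symbols), with dotted lines at 1.5-fold. Pdp1 stays above and Pdp2 below the dotted lines wherever they were measured, Dlat and Pdk1 fall on both sides of 0, and Dld lies at -2.33 only when a probe set under the floor is averaged in.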

How the data were processed

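The authors deposited MAS5 signal intensity per probe set for 2 arrays, per the submitters' processing notes (MAS5 version: not given in the sources used here). The 2% trimmed mean was 500.0 on each array, which shows a common scaling before deposit. No further scaling was applied. The 64 control probe sets were left out. Probe sets were named from the platform annotation, and the gene identifiers of all 10 members gave the same symbols in a RefSeq table of GRCm38.p6. No member shared a probe set with another symbol. In all 9696 genes had a measured probe set, and counts at 1.5-fold use the gene mean whatever the signs of its probe sets.

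The members and lists were chosen with earlier results of these data known. Named beyond the members are up to 3 genes per list farthest from 0, Kdm3a, Ppara, Ucp1, Adipoq, Alb, Ckm and Acta1. Cs, Ppard, Pdk3, Pdha2, Dlst, Bckdha, Gcsh and the other markers were named after their values were seen. The summed signal of a list uses the brightest probe set of each gene that has one, measured or not. The SD given is between probe sets and is technical, and the number of arrays limits the precision. No significance test between the pools was run. Alternatives were 3 scalings (quantile, median and loess with a span of 0.3), floors at the 75th and 50th percentile and none, 3 ways to combine probe sets, and a pseudocount of 50. The calculation of gene values was checked on simulated arrays with known changes. Python 3.11.15 and statsmodels 0.14.6 were used.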

Additional observations from a re-analysis of the deposited data

How the results depend on the processing

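Over 10 alternatives, the count of members at least 1.5-fold higher stayed at 1. The count at least 1.5-fold lower was 1 except with the floor at the 75th percentile, where it was 0 because Pdp2 was not measured, and with no floor, where it was 2 because a Dld probe set under the floor entered that gene's mean. Dlat turned sign in 5 alternatives, Pdk1 in 3, Dld in 1 (no floor, -2.33) and the median of the members in 2. Pdp1 and Pdp2, the members past 1.5-fold as reported, kept their sign wherever they were measured. The median of all measured genes was 0.04 as reported, 0.05 after quantile normalization and -0.0031 after loess. The acetyl-CoA median ranged from -1.04 to -0.51, that of the sister dehydrogenases from -0.55 to -0.34, and with no floor Acly and Acss2 were at -1.87 and -1.02. Low signal limits Pdp2, read by 1 probe set near the floor. No paired analysis was possible because each genotype has 1 array.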
